A study of Mus musculus with 6 samples.

Results

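The D cyclins, CDK inhibitors and retinoblastoma family were followed as 10 genes of cell cycle exit: Ccnd1, Ccnd2, Ccnd3, Cdkn1a, Cdkn1b, Cdkn1c, Cdkn2c, Rb1, Rbl1 and Rbl2. They were chosen by name, from the 49592 genes of the deposited table, and all 10 were among the 12770 genes expressed highly enough to be tested. RNA came from C2C12 cells, a single mouse myoblast line, grown in 10% FBS, differentiated for 3 days in 2% HS, and then kept for 12 h either untreated or with TWEAK at 10 ng/ml. TWEAK is a cytokine of the TNF superfamily that signals through the receptor Fn14. Each group had 3 poly(A)-selected libraries, numbered by trial. The libraries held 29969999 to 40909146 reads recovered from the deposited FPKM (a read level scaled to gene length and library size), and each of the 10 genes had at least 178 reads in every library.

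D-type cyclins bind CDK4 and CDK6, and these kinases phosphorylate the pocket proteins pRB, p107 and p130, which then release E2F transcription factors and allow the genes of DNA synthesis to be transcribed. Inhibitors of the INK4 class block CDK4 and CDK6, while those of the CIP/KIP class bind cyclin-CDK complexes more widely. During muscle differentiation myoblasts leave the cycle for good, with p21, cyclin D3 and pRB known to accumulate as cyclin D1 is lost. Cultures of C2C12 myotubes also keep some cells that have not fused, so in these bulk samples a change in the share of such cells and a change in RNA per cell cannot be told apart.

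With TWEAK, 2 of the 10 genes rose and 0 fell at an adjusted p of 0.05 in limma, a linear model with moderated variances fitted to log2(FPKM + 1) over all tested genes. Those that rose were Ccnd1, the gene of cyclin D1, at 1.92-fold, and Rbl1, the gene of p107, at 1.49-fold. The background in the same comparison was 15.1% of all tested genes, 8.98% higher and 6.10% lower. The trial numbers paired the libraries, as judged from the data, and with the trial as a replicate block limma called 6 of the 10, against a background of 27.9%: Ccnd1 and Rbl1 higher (15.4% of tested genes) and Ccnd2, Cdkn1b, Cdkn1c and Rb1 lower (12.5% of tested genes). All 10 genes moved in 1 direction in every trial, 3 up and 7 down, as did 58.5% of tested genes, 31.0% up and 27.5% down. The median log2 fold change of the 10 was -0.13, beside 0.01 over all tested genes. The count without the block rested on single libraries and on the filter. With no filter on low values, which adds genes near 0 to the fit, it was 0, beside 801 genes called in all. It was 0 when TWEAK library 2, TWEAK library 3 or untreated library 1 was dropped, 1 when untreated library 3 was, 2 for untreated library 2 and 4 for TWEAK library 1 (libraries numbered by trial).

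**Figure D1:**
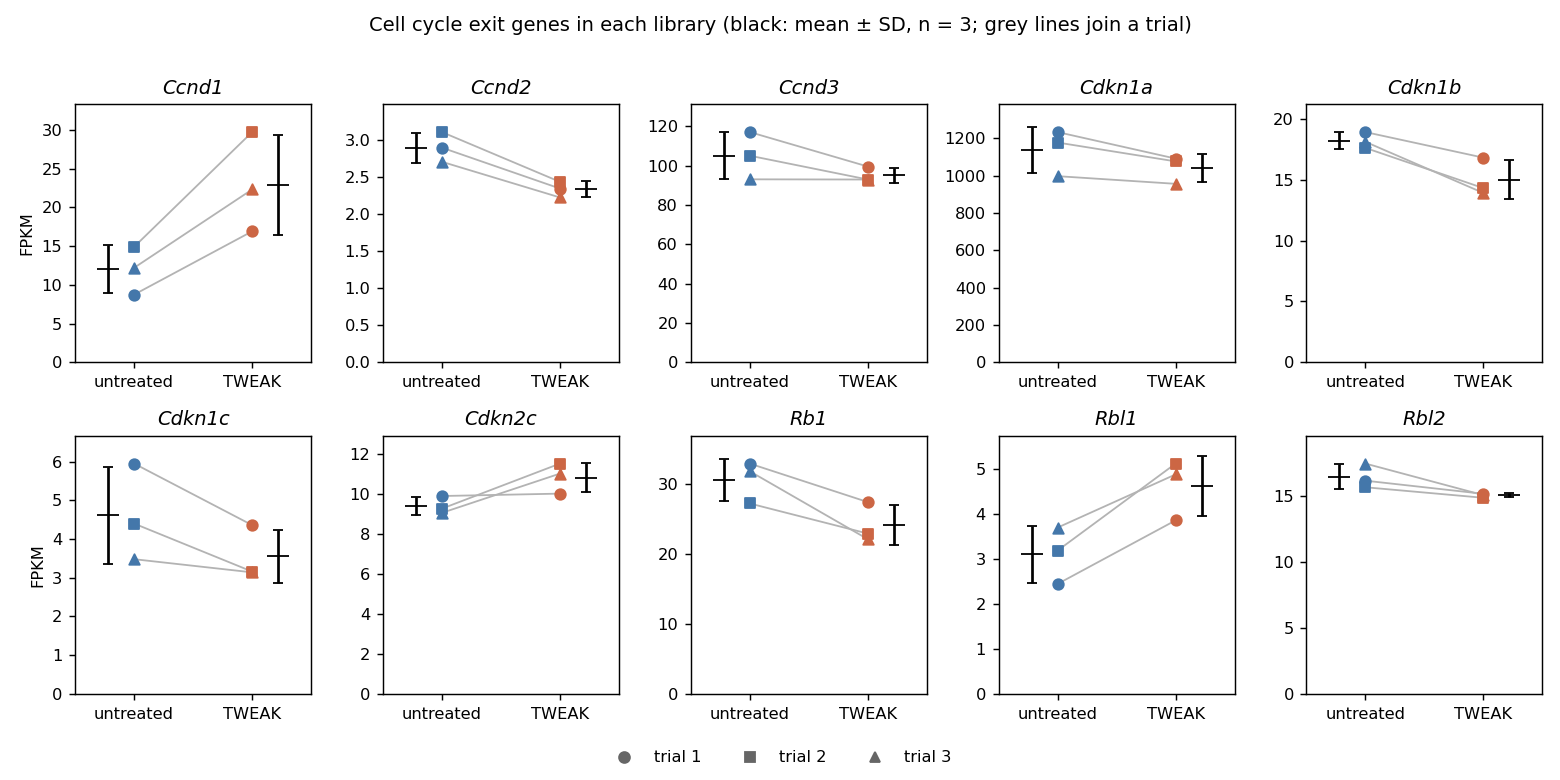
FPKM (vertical axes, from 0, a different scale for each gene) of the 10 genes in the untreated and TWEAK libraries, with marker shape for the trial, grey lines joining the libraries of a trial and black bars for mean ± SD (n = 3). Ccnd1, Cdkn2c and Rbl1 go up in each trial and the other 7 genes go down in each.

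The levels spanned more than 2 orders of magnitude. In untreated myotubes Cdkn1a stood first at 1136 FPKM (rank 24 of all genes in the table by mean FPKM over the 6 libraries), followed by Ccnd3 at 105, Rb1 at 30.6, Cdkn1b at 18.2, Rbl2 at 16.5, Ccnd1 at 12.0, Cdkn2c at 9.39, Cdkn1c at 4.61, Rbl1 at 3.10 and Ccnd2 at 2.89 FPKM. Neighbours in that order whose libraries overlapped were Ccnd1 and Cdkn2c, Cdkn1c and Rbl1, and Rbl1 and Ccnd2. With TWEAK, Ccnd1 stood in place 4 instead of 6, and its libraries, at 16.9 to 29.7 FPKM, overlapped those of Rb1, at 22.1 to 27.4 FPKM.

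Ccnd1 encodes cyclin D1, the D cyclin most tied to growth factor signals and proliferation (ENSMUSG00000070348.6, GRCm39 chromosome 7, 144483668 to 144493606). It was at 8.74, 14.9 and 12.2 FPKM in untreated trials 1, 2 and 3 and at 16.9, 29.7 and 22.3 FPKM in the same trials with TWEAK. The groups did not overlap, trial 1 was the lowest and trial 2 the highest in both, and the spread between trials was wide beside the distance between the groups. Within trials the TWEAK to untreated ratio was 1.93, 1.99 and 1.83. The mean of 3 libraries was 22.9 ± 6.45 (SD) FPKM under TWEAK, against 12.0 ± 3.11 in the controls, a log2 fold change of 0.88 (SE 0.21, limma adjusted p = 0.0226). With the replicate block the standard error was 0.06 and the limma adjusted p 4.72e-07, values that lean on the spread pooled over genes. In the fit with no block, dropping TWEAK library 2 gave a limma adjusted p of 0.0727, TWEAK library 3 gave 0.0536, untreated library 1 gave 0.063 and untreated library 3 gave 0.059, and with no filter on low values it was 0.125. Ccnd1 overlaps a protein-coding gene listed as LTO1 (8.26 FPKM with TWEAK and 7.63 without), and the use of strand in counting is not given in the sources used here.

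Ccnd3 encodes cyclin D3, the D cyclin that myoblasts induce as they differentiate (ENSMUSG00000034165.17, chromosome 17, 47815976 to 47910616). Its untreated libraries held 117, 105 and 93.0 FPKM and its TWEAK libraries 99.5, 92.9 and 92.9 FPKM. Untreated trial 3 lay within the range of the TWEAK libraries, so the groups overlapped, and in trial 3 the TWEAK to untreated ratio was 0.999. Its log2 fold change was -0.14, with a 95% interval from -0.33 to 0.06 (limma adjusted p = 0.336), and the adjusted p was 0.165 in limma with the block. Ccnd3 overlaps the protein-coding gene Bysl (18.9 and 16.2 FPKM with and without TWEAK).

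Ccnd2, the gene of cyclin D2 (ENSMUSG00000000184.13, chromosome 6, 127102125 to 127129156), was the lowest of the 3. It was at 2.89, 3.10 and 2.70 FPKM in the untreated libraries and at 2.34, 2.43 and 2.22 FPKM with TWEAK. Each TWEAK library was below each untreated one, by similar amounts in every trial (ratios 0.809, 0.784 and 0.822). The log2 fold change of -0.23 (SE 0.08) did not pass in limma without the block (adjusted p = 0.0894) and passed with it (limma adjusted p = 0.0427). With the block and any 1 trial left out it did not pass (limma adjusted p from 0.06 to 0.168).

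The summed level of the D cyclins was 120.4 ± 4.12 (SD, 3 libraries) FPKM under TWEAK and 119.8 ± 10.7 in the controls, while the makeup of that sum differed. Ccnd3 took 90.9%, 85.4% and 86.2% of it in untreated trials 1, 2 and 3 and 83.8%, 74.3% and 79.1% with TWEAK. Ccnd1 took 6.81%, 12.1% and 11.3% without TWEAK and 14.2%, 23.8% and 19.0% with it. The ratio of Ccnd1 to Ccnd3 was 0.116 ± 0.036 without and 0.243 ± 0.0751 with TWEAK, with no overlap between the groups (log2 difference 1.07, two-sided exact permutation p = 0.10). This ratio was chosen after the values were known, as were the 2 ratios below, and 3 libraries against 3 cannot give an exact p under 0.10; adjusted over the 3 ratios it remained 0.10.

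**Figure D2:**
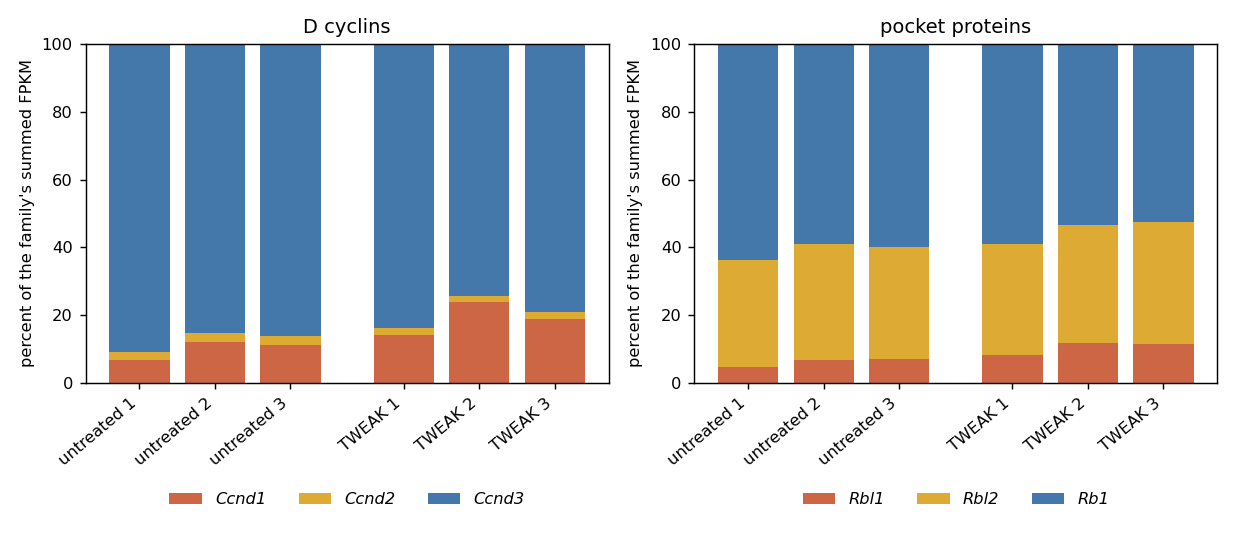
Percent of each family's summed FPKM (vertical axes) taken by each D cyclin gene (left) and each pocket protein gene (right) in the 6 libraries. Ccnd1 and Rbl1, at the bottom of the bars, take more in each TWEAK library than in any untreated one.

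The catalytic partners of the D cyclins moved unevenly. Cdk6 went from 2.05 ± 0.219 to 4.32 ± 1.01 FPKM (mean ± SD, n = 3 per group; limma adjusted p = 0.00561), a call lost with no filter on low values (0.053). Cdk4 went from 81.9 ± 3.80 to 105 ± 7.36 FPKM (limma adjusted p = 0.014), a call lost when TWEAK library 2 (0.0681) or untreated library 1 (0.0666) was dropped and with no filter (0.0532). Cdk2, which pairs with cyclins E and A, was at 26.1 FPKM with TWEAK and 27.6 FPKM without (limma adjusted p = 0.422).

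Cdkn1a encodes p21, the CIP/KIP inhibitor that p53 and the myogenic factors induce (ENSMUSG00000023067.15, chromosome 17, 29309950 to 29319701). It was at 1233, 1177 and 997 FPKM without TWEAK and at 1091, 1076 and 956 FPKM with it. The groups overlapped, and trial 3 was the lowest in both. The log2 fold change was -0.12, with a 95% interval from -0.38 to 0.13 (limma adjusted p = 0.510, and 0.39 with the block), so a fall of up to 0.38 on the log2 scale lies within the error. Cdkn1a made up 97.9% to 98.4% of the summed CIP/KIP FPKM in the 6 libraries.

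Cdkn1b encodes p27, which restrains CDK2 complexes and is removed in part through SKP2 (ENSMUSG00000003031.15, chromosome 6, 134897364 to 134902476). Its level was 18.9, 17.6 and 18.1 FPKM in the untreated libraries and 16.8, 14.3 and 13.9 FPKM with TWEAK. The groups did not overlap, and TWEAK replicate 1 lay closest to the untreated libraries. A log2 fold change of -0.27 (SE 0.08, limma adjusted p = 0.0561, and 0.00776 with the block) was fitted. With TWEAK library 1 dropped it passed without the block too (limma adjusted p = 0.0164). With the block it passed whichever trial was left out (limma adjusted p up to 0.0367), but those fits lean mostly on the spread pooled over genes.

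Cdkn1c, an imprinted gene, encodes p57 (ENSMUSG00000037664.14, chromosome 7, 143012076 to 143014787). It was at 5.95, 4.40 and 3.48 FPKM without TWEAK and 4.36, 3.16 and 3.14 FPKM with it. The trials differed more than the groups did, and the groups overlapped. Its log2 fold change was -0.29 (SE 0.16, limma adjusted p = 0.266), and the standard error was 0.08 with the block (limma adjusted p = 0.0164). With the block, the limma adjusted p ranged from 0.00459 to 0.118 as single trials were left out, and it passed without trial 3 only.

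Cdkn2c encodes p18, an INK4 inhibitor of CDK4 and CDK6 (ENSMUSG00000028551.15, chromosome 4, 109518073 to 109524386). It was at 9.88, 9.25 and 9.04 FPKM in the untreated libraries and 10.0, 11.5 and 11.0 FPKM with TWEAK. It was the inhibitor among the 4 with a higher level under TWEAK, without overlap, but in trial 1 the ratio was 1.02. Its log2 fold change was 0.19, with a 95% interval from 0.02 to 0.35 that is not adjusted for the number of genes (limma adjusted p = 0.127, and 0.0702 with the block). The ratio of Cdkn2c to Cdkn1b was 0.516 ± 0.0149 without and 0.730 ± 0.116 with TWEAK (log2 difference 0.49, no overlap, two-sided exact permutation p = 0.10). Of the other INK4 genes, Cdkn2a and Cdkn2b were listed at 0 in all 6 libraries, and Cdkn2d was at 14.6 and 15.4 FPKM with and without TWEAK (limma adjusted p = 0.532).

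**Figure D3:**
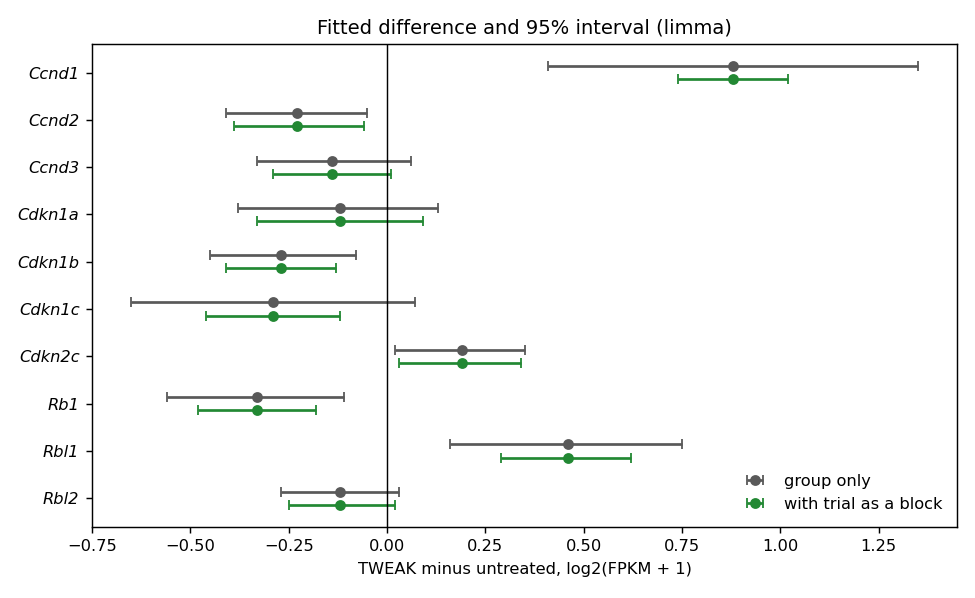
Fitted log2(FPKM + 1) difference, TWEAK minus untreated, for the 10 genes (horizontal axis), with 95% intervals that are not adjusted for the number of genes, from limma without (grey) and with (green) the trial as a block. Ccnd1 and Rbl1 have the largest rises of the 10, and the interval of Ccnd1 narrows from 0.41 to 1.35 without the block to 0.74 to 1.02 with it.

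Rb1 encodes pRB, the pocket protein that holds activating E2Fs and is needed for permanent exit in muscle (ENSMUSG00000022105.7, chromosome 14, 73421113 to 73563262). It was at 32.9, 27.2 and 31.8 FPKM without TWEAK and 27.4, 22.9 and 22.1 FPKM with it. Each trial fell, to ratios of 0.833, 0.842 and 0.694, while the groups overlapped by a narrow margin. Its log2 fold change was -0.33 (SE 0.10, limma adjusted p = 0.0512). Blocked by trial, the limma adjusted p was 0.00279, and up to 0.0178 with single trials left out. These blocked values lean on the spread pooled over genes. Without the block Rb1 passed when TWEAK library 1 (limma adjusted p = 0.0167) or untreated library 2 (0.0471) was left out. Rb1 overlaps 2 other protein-coding genes, Rcbtb2 (5.99 and 6.76 FPKM with and without TWEAK) and Lpar6 (1.27 and 1.20 FPKM).

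Rbl1 encodes p107, the pocket protein of cycling cells and itself known as an E2F target (ENSMUSG00000027641.14, chromosome 2, 156987813 to 157046432). It was at 2.44, 3.18 and 3.69 FPKM in untreated trials 1, 2 and 3 and 3.85, 5.11 and 4.87 FPKM with TWEAK. The lowest TWEAK library was just above the highest untreated one, and the ratios within trials were 1.58, 1.61 and 1.32. The log2 fold change was 0.46 (SE 0.13, limma adjusted p = 0.0453). Blocking by trial gave a limma adjusted p of 0.000688. In the fit with no block its call was lost when TWEAK library 2 (limma adjusted p = 0.154), TWEAK library 3 (0.107), untreated library 1 (0.137) or untreated library 2 (0.11) was dropped, with libraries scaled to their upper quartile (0.0511) and with no filter on low values (0.167).

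Rbl2 encodes p130, the pocket protein of quiescent cells that works with E2F4 in the DREAM repressor complex (ENSMUSG00000031666.16, chromosome 8, 91796685 to 91850472). Its libraries lay close together, at 16.2, 15.7 and 17.5 FPKM without TWEAK and 15.2, 14.9 and 15.1 FPKM with it. The groups did not overlap, yet the difference was small: the log2 fold change was -0.12, with a 95% interval from -0.27 to 0.03 (limma adjusted p = 0.269, and 0.189 with the block). Rbl2 overlaps the protein-coding gene Aktip (15.8 and 18.0 FPKM with and without TWEAK). As a description, 6 of the 10 genes had groups that did not overlap, 3 higher (20.0% of tested genes) and 3 lower (15.9%), 35.9% of tested genes in all.

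Within the pocket protein sum, Rbl1 took 4.73%, 6.89% and 6.97% in untreated trials 1, 2 and 3 and 8.28%, 11.9% and 11.6% with TWEAK. The sum itself was 43.8 ± 2.32 (SD, 3 libraries) FPKM under TWEAK and 50.2 ± 3.61 in the controls. The ratio of Rbl1 to Rb1 was 0.195 ± 0.047 with and 0.102 ± 0.0244 without TWEAK, with no overlap (log2 difference 0.93, two-sided exact permutation p = 0.10).

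RefSeq promoter windows (GRCm38.p6, a different build from that of the expression table) matched 6 of the 10 genes: Ccnd3, Cdkn1a and Cdkn2c with 2 start sites each, and Cdkn1b, Rbl1 and Rbl2 with 1. The 250 bases before the start are shown for Rbl1, which rose, beside its relative Rbl2 and the inhibitor Cdkn1b. Capitals mark the E2F site TTTCGCGC and, in Rbl2, the CHR motif TTTGAA of cell cycle promoters, each searched on both strands; the Rbl2 match lies on the other strand.
Rbl1, chr2:157204535-157204784, minus strand: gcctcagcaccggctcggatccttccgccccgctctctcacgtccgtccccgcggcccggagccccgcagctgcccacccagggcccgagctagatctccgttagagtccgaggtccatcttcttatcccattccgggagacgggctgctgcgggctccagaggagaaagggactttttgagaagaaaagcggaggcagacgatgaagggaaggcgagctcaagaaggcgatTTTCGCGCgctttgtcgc
Rbl2, chr8:91069807-91070056, plus strand: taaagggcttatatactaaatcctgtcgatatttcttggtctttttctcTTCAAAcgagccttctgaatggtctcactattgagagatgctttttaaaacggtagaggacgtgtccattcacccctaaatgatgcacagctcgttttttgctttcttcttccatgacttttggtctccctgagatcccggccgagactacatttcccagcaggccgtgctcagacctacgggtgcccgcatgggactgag
Cdkn1b, chr6:134920151-134920400, plus strand: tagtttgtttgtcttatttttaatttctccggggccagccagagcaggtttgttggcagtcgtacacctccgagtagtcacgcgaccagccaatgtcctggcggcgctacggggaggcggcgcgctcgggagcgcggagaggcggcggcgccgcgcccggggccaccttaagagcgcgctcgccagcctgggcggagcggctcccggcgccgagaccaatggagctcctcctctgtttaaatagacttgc

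The Rbl1 window holds 1 E2F site, whose first base is 18 bases before the start. TTTCGCGC occurs in 0.256% of the 32851 promoter windows in the table, and the variant TTTGGCGC in 0.417%. Of the 9 windows of the 6 genes, that of Rbl1 alone matched either, and Rbl2 alone matched TTTGAA, which 16.0% of all windows hold. The kappaB consensus, which NF-kB factors bind, matched none of the 9 and 7.25% of all windows. Ccnd1, Ccnd2, Cdkn1c and Rb1 had no window, so no motif was searched for them. The E-box CANNTG, bound by myogenic factors, matched 1 Cdkn1a window and the Rbl1 window, and 66.2% of all. Of the 20 E2F target genes listed for the pathway below, 16 had a window, and Dnmt1, Mcm5, Mcm6 and Uhrf1 held an E2F site, 25.0% of them, against 0.759% of all genes in the table. A match is only a description of these letters.

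The pathway around the 10 genes was described by 9 lists with 111 tested genes, of which 48 rose and 2 fell, beside 8.98% and 6.10% of all tested genes. With the block 60 rose and 4 fell, beside 15.4% and 12.5%. With no filter on low values 11 rose and 1 fell. The lists were made with earlier results of these data known, so their direction is not independent evidence. E2F target genes of DNA synthesis rose in 18 of 20 cases and fell in 0 (20 and 0 with the block). With no filter on low values 4 rose, and 12 to 18 rose when single libraries were dropped. Their median log2 fold change was 0.84. Tk1, the salvage thymidine kinase, went from 5.74 ± 1.66 to 15.9 ± 3.79 FPKM (limma adjusted p = 0.00298), and the helicase genes Cdc45 and Mcm7 rose 2.16-fold and 1.90-fold. The summed level of the list was 256, 344 and 326 FPKM in untreated trials 1, 2 and 3 and 424, 592 and 554 FPKM with TWEAK, so trial 1 was lowest and trial 2 highest in both groups, as for Ccnd1. Mitosis genes rose in 11 of 16 cases and fell in 0, among them Nusap1 (2.06-fold), Birc5 (2.07-fold) and Aurkb (1.98-fold). The mitosis count was 7 when TWEAK library 2 or untreated library 1 was dropped and 5 when untreated library 3 was. With no filter on low values it was 0, with limma adjusted p-values of 0.0514 for Nusap1, 0.0573 for Birc5 and 0.055 for Aurkb.

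**Figure D4:**
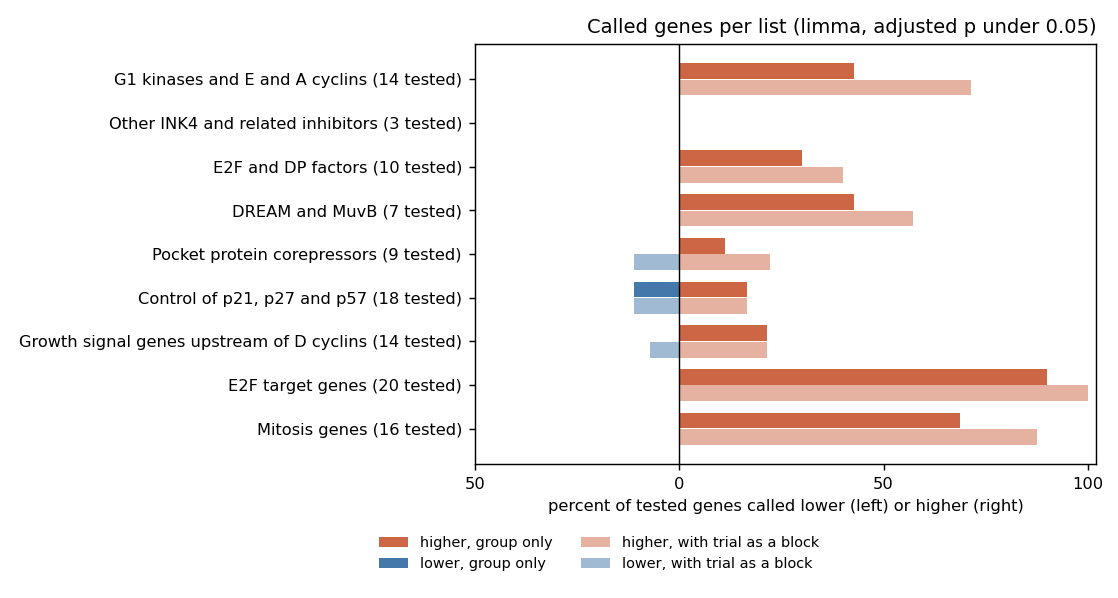
Percent of each list's tested genes (horizontal axis) that limma called higher (right, orange) or lower (left, blue) with TWEAK, without (dark) and with (pale) the trial as a block. E2F target genes reach 18 of 20 and mitosis genes 11 of 16 without the block.

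Among G1 kinases and later cyclins, 6 of 14 rose and 0 fell, beside 8.98% and 6.10% of all tested genes. That list also held Cdk1, Wee1, Ccnb1 and Ccnb2, which are not G1 genes, and Cdk1 was among those that rose. With the block 10 rose and 0 fell, beside 15.4% and 12.5%, and with no filter on low values 1 rose. The E cyclin genes, whose products drive S-phase entry with CDK2, went from 5.25 ± 0.825 to 9.63 ± 1.16 FPKM for Ccne1 (limma adjusted p = 0.00328) and from 5.12 ± 1.59 to 9.91 ± 2.32 FPKM for Ccne2 (limma adjusted p = 0.0226). The Ccne2 call was lost when TWEAK library 2 (limma adjusted p = 0.0832), TWEAK library 3 (0.0537) or untreated library 2 (0.0644) was dropped, and with no filter (0.124). Ccna2, the S-phase cyclin A, rose 1.75-fold (limma adjusted p = 0.00627, and 0.0521 with no filter).

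Of 10 tested E2F and DP factors, 3 rose and 0 fell, beside 8.98% and 6.10% of all tested genes. With the block 4 rose and 0 fell, beside 15.4% and 12.5%, and with no filter on low values 1 rose. E2f2, an activating E2F, went from 15.7 ± 0.592 to 22.6 ± 1.45 FPKM (limma adjusted p = 0.00246). The dimerization partner gene Tfdp1 rose 1.27-fold and E2f1 1.45-fold, and both calls rested on single libraries. For Tfdp1, dropping TWEAK library 2 gave a limma adjusted p of 0.10, untreated library 1 gave 0.0859, untreated library 2 gave 0.0711 and no filter 0.0733. For E2f1 it was from 0.0887 to 0.158 when any library but TWEAK library 1 was dropped, and 0.171 with no filter. The list count was 1 when TWEAK library 2, untreated library 1 or untreated library 2 was dropped. E2f4, the partner of p130, was at 26.1 and 23.2 FPKM with and without TWEAK (limma adjusted p = 0.137).

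Of the 7 genes of the DREAM and MuvB complexes, 3 rose and 0 fell, beside 8.98% and 6.10% of all tested genes. With the block 4 rose and 0 fell, beside 15.4% and 12.5%. Without it, 1 rose when TWEAK library 2 was dropped, and 0 with no filter on low values. Mybl2, whose B-MYB product turns MuvB from a repressor to an activator, went from 1.62 ± 0.508 to 4.32 ± 1.13 FPKM (limma adjusted p = 0.00572, and 0.057 with no filter). The mitotic activator gene Foxm1 rose 1.79-fold (limma adjusted p = 0.0448), a call lost when TWEAK library 2 (0.113), untreated library 1 (0.129) or untreated library 3 (0.128) was dropped, with no filter (0.18) and under both other scalings (0.0564 and 0.0521). The MuvB subunit gene Lin37 rose 1.32-fold, and dropping TWEAK library 2 gave a limma adjusted p of 0.0629, untreated library 2 one of 0.051 and no filter one of 0.0519. Of 9 corepressor genes of pocket proteins, Ezh2 rose 1.34-fold (limma adjusted p = 0.00813) and 0 fell, and with the block 2 rose and 1 fell. Over all tested genes the shares were 8.98% higher without the block and 15.4% higher and 12.5% lower with it. The few corepressor calls are thus no result about the corepressor list.

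Among 18 genes that control p21, p27 and p57, 3 rose and 2 fell (1 and 1 with no filter on low values), beside 8.98% and 6.10% of all tested genes. With the block 3 rose and 2 fell as well, beside 15.4% and 12.5%, so these few calls are no result about the list. Trp53, the gene of p53, went from 19.3 ± 0.205 to 30.9 ± 2.82 FPKM (limma adjusted p = 0.000812), while its target Cdkn1a did not pass. Cks1b and Skp2, whose products mark p27 for degradation, rose 1.51-fold and 1.34-fold. The ubiquitin ligase gene Fbxw7, which acts on cyclin E, fell from 15.2 ± 1.00 to 10.8 ± 1.09 FPKM (limma adjusted p = 0.00817), and Foxo4, of a family that activates Cdkn1b, fell from 22.0 to 18.1 FPKM (limma adjusted p = 0.0403). The calls of Skp2 and Foxo4 were lost when any library but TWEAK library 1 was dropped (limma adjusted p from 0.0803 to 0.174 and from 0.0592 to 0.165), and with no filter (0.149 and 0.0946), and that of Skp2 also under both other scalings (0.0617 and 0.0581). The Cks1b call was lost with no filter (0.0689).

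Of 14 tested growth signal genes upstream of the D cyclins, 3 rose and 0 fell, beside 8.98% and 6.10% of all tested genes. That list also held Gsk3b, Fbxo4, Fbxo31 and Ambra1, which are not themselves growth signal genes. With the block 3 rose and 1 fell, beside 15.4% and 12.5%, so these few calls are no result about the list. Fosl1, an AP-1 gene, went from 1.68 ± 0.320 to 5.15 ± 1.52 FPKM (limma adjusted p = 0.00242), Myc rose 1.73-fold and Junb 1.58-fold. Ctnnb1, the gene of beta-catenin, was at 189.7 and 185 FPKM with and without TWEAK (limma adjusted p = 0.779).

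For both genes that rose, the 3 most similar expression patterns were looked up over the 6 libraries, by Pearson correlation of log2(FPKM + 1). Only genes whose mean over the libraries reached 5 FPKM were searched, and predicted genes (Gm or Rik names) and unnamed ones were left out. The 3 for Ccnd1 were Hirip3 (r = 0.999), Spc24 (r = 0.996), a kinetochore gene, and Uck2 (r = 0.994). The 3 for Rbl1 were Pcna-ps2 (r = 0.994), Txnrd3 (r = 0.992) and Suv39h1 (r = 0.992), a histone methyltransferase gene. A high correlation did not mean a change of similar size. The folds with TWEAK were 1.47, 1.60 and 1.13 for the first 3 and 1.74, 1.13 and 1.29 for the others. With 6 libraries that share a group difference and a trial difference, these values are a description. Pcna-ps2 carries the name of a pseudogene and may share reads with Pcna.

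Markers of differentiated and undifferentiated cells moved beside these genes, and their part in the results was not tested. Of 13 myotube markers 0 rose and 4 fell, beside 8.98% and 6.10% of all tested genes. Those that fell were the cardiac actin gene Actc1 (0.531-fold, limma adjusted p = 0.00131), the developmental myosin genes Myh8 (0.534-fold) and Myh3 (0.599-fold), and Mef2c (0.57-fold), a muscle transcription factor gene. The other 9 were not called and did not share a direction. Myog (826 FPKM with TWEAK and 706 without), Mymk (646 and 578) and Des (1141 and 996) had higher means with TWEAK (limma adjusted p from 0.221 to 0.262). Ckm, Acta1, Mylpf, Tnnt3, Tnni1 and Tnnc2 had lower means. The summed myotube level was 16754 to 19455 FPKM with TWEAK and 19630.5 to 21053 without. Of 13 markers of undifferentiated or reserve myoblasts 3 rose and 4 fell (4 and 8 with the block, beside 15.4% and 12.5% of tested genes). Vcam1 rose 2.43-fold (limma adjusted p = 0.00272), Cd34 2.01-fold and Msc 1.97-fold, while Heyl (0.509-fold), Id1 (0.551-fold), Id3 (0.593-fold) and Myf5 (0.664-fold) fell. The summed level of this list was 231 to 311 FPKM with TWEAK and 197 to 259 without, while its median log2 fold change was -0.28. Sdc4 (90.9 FPKM with TWEAK and 73.0 without) and Vcam1 (70.6 and 29.0) weighed most in that sum. Pax7 was at 1.6 and 2.36 FPKM with and without TWEAK (limma adjusted p = 0.0704, and 0.004 with the block).

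Markers of other cell types were mixed. Of the 7 macrophage and leukocyte genes, Cd14 rose from 2.95 to 4.37 FPKM (limma adjusted p = 0.0142) and Cd68 was at 1.24 and 1.30 FPKM without and with TWEAK, while Ptprc, Csf1r, Itgam and Lyz2 were below the level tested and Adgre1 was at 0. Of the 6 adipocyte genes, Pparg fell from 2.93 to 1.94 FPKM (limma adjusted p = 0.0245), Cebpa was at 5.34 and 5.85 FPKM, and Plin1 and Cfd were at 0. The calls of Cd14 and Pparg were both lost with no filter on low values, or when TWEAK library 2 or untreated library 1 was dropped, and that of Pparg also without untreated library 3. Of the 5 fibroblast genes, Col1a1 fell from 47.3 to 34.3 FPKM (limma adjusted p = 0.00428), and Dpt, Pdgfra and Lum were tested and not called. Of the 5 osteoblast genes, Runx2 was at 3.39 and 2.81 FPKM (limma adjusted p = 0.124) and Ibsp was at 0. None of the 5 endothelial genes reached the level tested, and Emcn was at 0. The summed lists lay at 5.4 to 6.67 FPKM with TWEAK and 4.45 to 5.03 without for leukocytes, at 6.77 to 9.06 and 7.49 to 9.16 for adipocytes, and at 36.7 to 46.1 and 51.3 to 55.9 for fibroblasts. For osteoblasts they lay at 2.74 to 3.02 and 3.28 to 3.67 FPKM, and for endothelium at 0.0585 to 0.0796 and 0.0671 to 0.104 FPKM.

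In the authors' deposited table, whose fit held more libraries than these 6, 5 of the 10 genes have an adjusted p under 0.05: Ccnd1 (log2 fold change 0.94, adjusted p = 0.0356) and Rbl1 (0.57, 0.00635) higher, and Rb1 (-0.35, 0.00328), Cdkn1b (-0.28, 0.0113) and Ccnd2 (-0.31, 0.0411) lower. All 5 are among the 6 that limma called with the block. For Cdkn1c the authors' deposited table gives -0.37 with an adjusted p of 0.532.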

How the data were processed

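Poly(A)-selected RNA of 6 C2C12 libraries, 3 per group, was sequenced. The tools named in the submitters' processing notes are DESeq2 1.22.2, HTSeq 0.6.1p2, STAR 2.6.0c and Trim Galore 0.5.0, and the build is GRCm39. How they were run, which gene annotation was used and whether strand counted is not given in the sources used here. Per the file headers, the deposited table gives FPKM per library and the authors' comparison: a mean normalized count (a signal), a log2 fold change with its standard error, a test score, and unadjusted and adjusted p-values. The deposited mean is above 0 for 2337 genes at 0 in all 6 libraries, so that fit held more libraries, not analysed here. The number of per-sample columns without a sample was 0.

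The members, lists and tests were chosen with earlier results of these data known. FPKM are not counts, so limma-trend was fitted to log2(FPKM + 1) for genes averaging 0.5 FPKM or more (limma 3.58.1, R 4.3.3), two-sided, with Benjamini-Hochberg adjustment over all 12770 genes at 0.05. Log2 fold changes are on that scale, which understates changes of low genes; folds are ratios of mean FPKM. Whole reads were recovered from the FPKM, and each of the 126386 nonzero values lay within 1e-06, relative to its size, of a whole number of reads. The unit of each gene was searched so that its values came out whole, so this is no independent check of the reads. For 265 tested genes a common factor was chosen from the deposited mean, which is an assumption. The reads served for depth and for limma-voom.

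The labels do not say whether trials were separate cultures; p-values then cover only the spread among the libraries, which may be technical. Between the libraries of trials 1, 2 and 3, departures from the group mean had correlations of 0.473, 0.218 and 0.434, each above 0.1, and the trials were therefore taken to pair the libraries; the pairing comes from the data. The 10 genes, up to 3 risen and 3 fallen genes per list by adjusted p, and Cdk4, Cdk6, Cdk2, Ccne1 and Ccne2 were named by rule; other genes were chosen after their values were seen. The fit without the block was run on simulated data that held no difference between trials, so that run cannot speak to the trials or to the block. Python 3.11.15 with numpy 2.4.6, pandas 2.3.3, scipy 1.17.1 and matplotlib 3.10.9 made the other values and plots. Alternatives were other pseudocounts (0.1 and 0.5), filters, scalings, the block, limma-voom and leaving out each library.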

Additional observations from a re-analysis of the deposited data

How the results depend on the processing

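The block leaves few degrees of freedom, and fewer with 1 trial left out, so the p-values and intervals of both fits lean on the spread pooled over genes. Leaving out 1 trial was chosen after seeing the data. With fewer libraries p could even come out smaller. For Ccnd1 the limma adjusted p was 8.34e-20 with the block and trial 2 left out, beside 4.72e-07 with all 6 libraries. Passing in such a fit is therefore no check of robustness. All 10 genes kept their direction under each alternative run. Of all tested genes, 1926 were called, 801 with no filter and 3563 with the replicate block; 844 to 2101 without single libraries and 2925, 3015 and 2959 with the block and trial 1, 2 or 3 left out. The 1147 rises became 499 with no filter and 1965 with the block (501 to 1266 without single libraries, 1597 to 1665 with the block and without a trial). The 779 falls became 302 and 1598 (343 to 835, and 1292, 1350 and 1362).

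Pathway list genes called went from 50 to 12 with no filter, all but 1 of them risen (11), to 32 to 49 without single libraries (31 to 48 risen), and to 60 to 64 with the block and 1 trial left out (55 to 61 risen). The 2 falls became 1 with no filter, 4 with the block, and 1 to 6 with libraries or trials left out.

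The number of the 10 genes called was 0 with no filter, 5 with limma-voom on recovered reads and 6 with the replicate block, and 0 to 6 with libraries or trials left out. With no filter, which adds genes near 0 to the trend, Ccnd1 (0.8802, limma adjusted p = 0.125) and Rbl1 (0.4555, 0.167) lost their calls, as did Foxm1, Cdk4, Cdk6, Birc5, Mybl2, Aurkb, Nusap1, E2f1, Ccna2, Cks1b, Ccne2, Lin37, Tfdp1, Foxo4 and Skp2; Rbl1 also lost it with upper quartile scaling (0.4302). With the replicate block Ccnd2 (-0.2262), Cdkn1b (-0.2682), Cdkn1c (-0.2875) and Rb1 (-0.3341) gained one. With limma-voom Ccnd2 (-0.3071), Cdkn1b (-0.2849) and Rb1 (-0.3463) did, with upper quartile scaling Cdkn1b (-0.2981) and Rb1 (-0.3647), and with a mean FPKM of at least 2 Rb1 (-0.3341). The cause was not tested. Without single libraries the log2 fold change ranged from 0.6832 to 1.074 for Ccnd1, -0.2631 to -0.1891 for Ccnd2, -0.2196 to -0.0572 for Ccnd3, -0.3479 to -0.2193 for Cdkn1b, -0.4383 to -0.1215 for Cdkn1c, 0.1472 to 0.2359 for Cdkn2c, -0.4251 to -0.2755 for Rb1 and 0.3335 to 0.5583 for Rbl1. With the block and trial 1, 2 or 3 left out, it was -0.3204, -0.2623 and -0.222 for Cdkn1b and -0.3736, -0.3817 and -0.2471 for Rb1; without trial 3 it was -0.3753 for Cdkn1c and -0.2032 for Ccnd3 (limma adjusted p = 0.0477), and without trial 1 it was 0.2696 for Cdkn2c (0.0437). The share of Ccnd3 in the untreated D cyclin sum was 85.8% to 88.6% without single libraries. The replicate block also raised the count of G1 kinases and cyclins that rose from 6 to 10 and changed no call of another gene named by rule. With 3 libraries per group, falls as small as those of Ccnd3, Cdkn1a and Rbl2 were not resolved from 0.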
